A study of Mus musculus with 9 samples.

Results

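Arhgap36, Abca13 and Megf6 are 3 of the 55385 genes in the deposited table of kidney cells sorted after ischemia-reperfusion injury. They were chosen by their measured levels over all 9 libraries, low or missing in uninjured and early injured cells and high in late ones, and these levels and the fold changes between groups are given as a description, with no test. All 3 passed the filter on low counts. Arhgap36 and Megf6 passed it only through the late group.

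Sorted kidney cells positive for the red fluorescent protein tdTomato were collected in 3 groups of 3 biological replicates, from male mice of 9 to 12 weeks and 25 to 30 g. All mice carried the R26RtdT/+ reporter and received tamoxifen. The uninjured group was Slc34a1IRES-CreERT2/+:R26RtdT/+, in which Cre follows a phosphate transporter gene of the proximal tubule. The other groups were Sox9IRES-CreERT2/+:R26RtdT/+, in which Cre follows Sox9, a transcription factor that injured tubule cells switch on, and had ischemia-reperfusion of both kidneys. In the 48 h group tamoxifen was given at injury and cells were taken 48 h later. The d14 mice received it 10 and 12 days after injury, and their cells were taken on day 14. The labels do not mention a sham operation for the uninjured group. The Cre allele, the injury and the tamoxifen schedule differ together between uninjured and Sox9 cells, so they cannot be told apart. Between 48 h and d14 cells the time after injury and the tamoxifen schedule differ together, and cannot be told apart either. A label records that a cell expressed the Cre gene while tamoxifen was present, and Sox9 also marks tubule segments other than the proximal one.

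ARHGAP36 is best known for binding and blocking the catalytic subunits of protein kinase A, which relieves the brake that this kinase puts on the GLI factors of hedgehog signalling. ABCA13 is a very large member of the ABCA transporters, membrane pumps that move lipids between the leaflets of a membrane or out of the cell. MEGF6 is built mostly of repeated EGF-like domains, as are many proteins of the extracellular matrix, and its function is little known. None of them is in the lists of tubule segment markers used below.

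In GRCm38 (mm10) Arhgap36 (ENSMUSG00000036198.12) lies on the plus strand of chromosome X from 49463945 to 49500244, Abca13 (ENSMUSG00000004668.14) on the plus strand of chromosome 11 from 9191942 to 9684259, and Megf6 (ENSMUSG00000057751.14) on the plus strand of chromosome 4 from 154170730 to 154275713. Each is a protein-coding gene in GENCODE, with 16, 63 and 38 exons after merging transcripts and exonic lengths of 3421, 19737 and 7877 bases. No annotated gene shares exon sequence with any of them. Of other genes only the pseudogene Gm13132, inside a Megf6 intron, overlaps a gene body, and it had no count in any library.

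The sequences just before their starts are shown because the genes were high in the same libraries. They are the 250 bases before each RefSeq start (GRCm38.p6, 5′ to 3′), with 2 starts for Arhgap36, and gene-level counts do not say which start was used. Capitals mark the matches to the motifs searched.
Arhgap36 start 1 (chrX:49463695-49463944): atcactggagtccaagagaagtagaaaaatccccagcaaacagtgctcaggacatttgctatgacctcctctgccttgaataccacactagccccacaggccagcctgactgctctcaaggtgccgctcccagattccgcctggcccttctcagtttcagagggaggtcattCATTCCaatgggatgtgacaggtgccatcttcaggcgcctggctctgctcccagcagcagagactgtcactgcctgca
Arhgap36 start 2 (chrX:49470200-49470449): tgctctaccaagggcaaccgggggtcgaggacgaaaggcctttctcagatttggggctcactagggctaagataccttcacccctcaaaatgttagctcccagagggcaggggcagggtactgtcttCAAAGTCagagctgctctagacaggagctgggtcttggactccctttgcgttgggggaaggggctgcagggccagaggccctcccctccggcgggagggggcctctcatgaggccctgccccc
Abca13 (chr11:9191692-9191941): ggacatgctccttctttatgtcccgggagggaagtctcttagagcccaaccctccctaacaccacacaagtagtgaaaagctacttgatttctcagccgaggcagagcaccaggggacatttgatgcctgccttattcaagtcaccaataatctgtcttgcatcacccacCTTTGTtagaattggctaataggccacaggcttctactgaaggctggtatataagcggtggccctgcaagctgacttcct
Megf6 (chr4:154170463-154170712): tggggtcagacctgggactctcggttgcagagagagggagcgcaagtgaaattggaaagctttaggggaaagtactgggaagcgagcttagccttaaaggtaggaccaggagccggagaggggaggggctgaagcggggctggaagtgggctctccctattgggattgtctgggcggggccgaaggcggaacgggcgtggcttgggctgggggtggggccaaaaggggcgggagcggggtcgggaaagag

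Motifs were searched on both strands: ACAANG and AACAAT for SOX factors, GGAATG for TEAD factors, TGANTCA for AP-1, ACCACCC for GLI factors, CAAAGTC for HNF4 and TATAAA for the TATA box. The window before the first Arhgap36 start held the TEAD letters on the opposite strand (CATTCC, 78 to 73 bases before the start), as 12.6% of the 32851 windows of this length do. The window before the other Arhgap36 start held the HNF4 letters (123 to 117 bases before it), found in 3.84% of windows. The Abca13 window held ACAANG on the opposite strand as CTTTGT (80 to 75 bases before the start), found in 36.3% of windows. For the TATA box only the exact letters TATAAA were searched, so the similar letters tatataag near the end of the Abca13 window were not counted. The Megf6 window held none of the motifs. No motif was common to the 3 genes. The Megf6 window was 63.2% G and C with 13 CpG pairs, against 49.6% and 3 for Abca13, and the median window had 52.4% and 6.

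Total counts were 31585507 to 51631204 in uninjured libraries, 8036054 to 23794029 at 48 h and 19239354 to 30414758 at d14. Levels are CPM, counts relative to the library total after correction by TMM, a method that takes most genes as equal between libraries. A library with no count of a gene allows up to 3 counts, or 0.0651 to 0.431 CPM depending on the library. These limits and the 95% Poisson intervals below cover counting error only. The genes used for labelling followed the labels. In uninjured, 48 h and d14 cells Sox9 was at 0.274 ± 0.318, 14.9 ± 7.28 and 33.2 ± 5.07 CPM (SD, n = 3), and Slc34a1 at 4743, 2482 ± 1706 and 1422 ± 371 CPM, with uninjured libraries between 4626 and 4807.

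Arhgap36, the protein kinase A inhibitor, had no count in any uninjured library. At 48 h it had 0, 0 and 6 counts, the last being 0.277 CPM (interval 0.101 to 0.602) in replicate 3. At d14 it had 179, 446 and 485 counts, or 6.30, 17.7 and 13.2 CPM. Only the d14 libraries thus held the transcript at more than a trace, and the lowest of them was 22.8 times the highest 48 h library. Pooled over the group, d14 was at least 466-fold higher than uninjured cells, taking 3 counts over the uninjured group as the limit. Against 48 h the ratio of pooled levels was 95.1 (interval 43.6 to 260), and the fitted log2 fold change was 6.61 ± 0.87 (SE). Because all 48 h counts came from 1 library, no fold of 48 h over uninjured cells is given.

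Abca13, the lipid transporter, was the only one of the 3 with a clear level in uninjured cells. It was at 11.9, 12.2 and 11.6 CPM there, a spread of 2.34% (coefficient of variation). At 48 h it was at 24.1, 9.05 and 10.7 CPM, so that 1 replicate lay above and the others below all uninjured libraries. At d14 it reached 239, 542 and 500 CPM. The d14 libraries were all above the others, and the lowest was 9.93 times the highest 48 h library. The fitted log2 fold change of d14 was 5.17 ± 0.45 over uninjured cells and 4.84 ± 0.45 over 48 h cells. That of 48 h over uninjured cells was 0.32 ± 0.40, smaller than its error, and it was -0.25 without 48 h replicate 1.

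Megf6, the EGF-repeat protein, had 2, 6 and 0 counts in the uninjured libraries, or 0.0434, 0.211 and 0 CPM. At 48 h it had 10, 1 and 1 counts, or 0.561, 0.144 and 0.0461 CPM. At d14 it had 446, 176 and 317 counts, or 15.7, 6.97 and 8.63 CPM. Uninjured and 48 h libraries overlapped near the limit of detection, while the lowest d14 library was 12.4 times the highest 48 h library. The fitted log2 fold change of d14 was 7.04 ± 0.96 over uninjured cells and 5.30 ± 0.90 over 48 h cells. As ratios of pooled levels these were 148 (interval 74.8 to 344) and 40.2 (interval 22.9 to 78.1). With so few counts in the low groups single libraries moved these values. Without uninjured replicate 2, which held 6 of the 8 uninjured counts, the log2 fold over uninjured cells was 8.74, and without 48 h replicate 1 that over 48 h cells was 7.22. The fold of 48 h over uninjured cells was 1.75 ± 1.09, with -0.03 without 48 h replicate 1 and 3.45 without uninjured replicate 2.

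**Figure D1:**
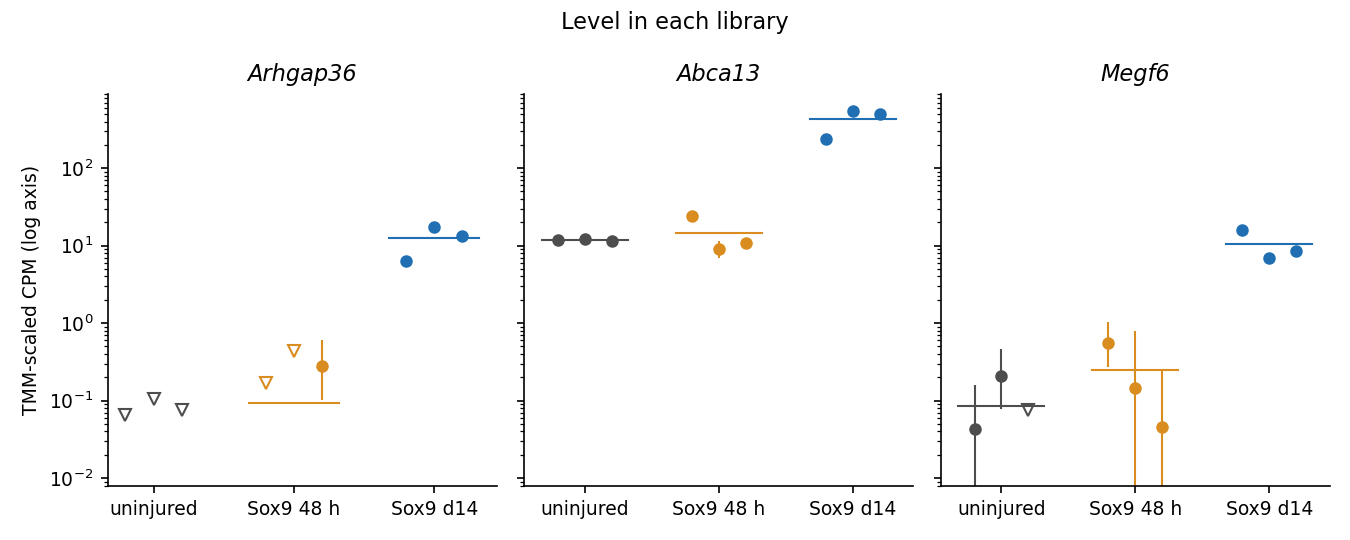
TMM-scaled CPM (log axis) of Arhgap36, Abca13 and Megf6 in each of the 9 libraries, with 95% Poisson intervals as bars and the group mean as a line; open triangles stand for libraries with no count, drawn at the level of 3 counts. All d14 libraries lie above all others for each gene, while uninjured and 48 h libraries overlap.

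In each gene the order of the levels was therefore d14 above the other groups, and uninjured and 48 h cells did not differ beyond their spread. With edgeR, 25.1% of the 15519 genes tested were called higher in d14 than in uninjured cells (adjusted p under 0.05) and 16.8% higher in d14 than in 48 h cells. Of the same genes, 17.4% were called higher and 11.7% lower at 48 h than in uninjured cells. All 3 genes were called higher in both d14 comparisons and not called at 48 h, a class that holds 1068 genes or 6.88% of those tested, which their choice fixes. Within this class Abca13 ranked 65 and Megf6 28 by fitted fold over uninjured cells, and Arhgap36, Abca13 and Megf6 ranked 35, 54 and 45 by fold over 48 h cells. The comparisons share libraries, so these ranks are not separate evidence.

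Scaled by exonic length as well (RPKM, CPM per kilobase of exon), the 3 transcripts were far apart at d14. Abca13 was at 21.6 ± 8.29 RPKM, above 91.3% of tested genes. Arhgap36 was at 3.62 ± 1.67 RPKM, above 53.9% of them. Megf6 was at 1.32 ± 0.589 RPKM, above 31.7%. Abca13 was thus an abundant transcript of d14 cells, Arhgap36 a middling one and Megf6 a scarce one. In uninjured cells Abca13 was at 0.603 ± 0.0141 RPKM and Megf6 at 0.0108 ± 0.0141 RPKM.

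The d14 replicates differed more for these genes than for most. The coefficient of variation was 46.2% for Arhgap36, 38.3% for Abca13 and 44.5% for Megf6, against a median of 14.7% over tested genes, and 81.0 to 85.0% of tested genes varied less. The replicates did not fall in the same order. Arhgap36 and Abca13 were lowest in d14 replicate 1 and highest in replicate 2, whereas Megf6 was highest in replicate 1 and lowest in replicate 2. At 48 h, Abca13 and Megf6 were highest in replicate 1, and the Arhgap36 counts were all in replicate 3.

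Summed markers of other tubule segments were higher in d14 cells than in the other groups. Of all genes tested, 25.1% were called higher and 20.7% lower in d14 than in uninjured cells, and 16.8% and 16.3% than at 48 h. All 8 markers of the distal convoluted and connecting tubule were called higher in d14 than in either other group. Their summed CPM, 316 to 375 in the uninjured libraries and 614 to 875 in those of 48 h, was 3484, 4554 and 4793 in d14 replicates 1 to 3. Slc12a3, the thiazide-sensitive transporter, was the most abundant of them. Of 8 thick ascending limb markers 6 were higher in d14 than in uninjured cells and 7 than at 48 h, with 1 lower in each, and the sum was 387 to 494, 874 to 1115, and then 3157, 5616 and 5847 in the d14 replicates. Both sums were highest in d14 replicate 3, where none of the 3 genes was highest. Both were lowest in d14 replicate 1, as Arhgap36 and Abca13 were and Megf6 was not. The summed proximal tubule markers were also lowest there, at 4279 against 7316 and 7681, and 11 of 12 were called lower in d14 than in uninjured cells. Of 12 markers of failed proximal repair 11 were higher in d14 than in uninjured cells and 4 than at 48 h. Their sum was 10235, 8488 and 10636 in the d14 replicates, overlapped with 48 h (8734 to 21527), and was 296 to 506 in uninjured cells. Most of it was Spp1, with means of 327, 13655 and 8398 CPM in uninjured, 48 h and d14 cells. The median log2 fold of the 12 markers in d14 against 48 h cells was 1.19, with none called lower. The part of all these cell types in the levels of the 3 genes was not tested. In bulk samples more cells of a type and more RNA per cell cannot be told apart.

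Collecting duct markers were higher as well, where 25.1% of all genes were called higher in d14 than in uninjured cells and 16.8% than at 48 h. Principal cell markers (7 of 8 called higher in d14 than in uninjured cells, 4 than at 48 h) summed to 60.2 to 83.2, 332 to 395 and 525 to 749 CPM, and intercalated cell markers (7 and 4 of 8) to 20.9 to 33.2, 88.0 to 126 and 248 to 283 CPM. Neutrophil markers, 113 to 343 CPM at 48 h, were at 4.03 to 5.74 CPM in d14 cells and 3.19 to 8.39 in uninjured cells. All 5 tested were called lower in d14 than at 48 h, as were 16.3% of all genes. Endothelial markers were at 683 CPM in 48 h replicate 1, where Abca13 and Megf6 were highest of the 48 h replicates, against 80.5 and 133 CPM in the others, and at 31.9 to 61.6 CPM in d14 cells. That library differed in other cell types as well. Its proximal tubule sum (19463 against 7645 and 9170 CPM) and podocyte sum (269 against 114 and 174) were the highest at 48 h. Its failed-repair sum (8734 against 12729 and 21527) and neutrophil sum (113 against 216 and 343) were the lowest. Fibroblast and pericyte markers summed to at most 13.4 CPM in any library, urothelial markers to at most 3.65, smooth muscle markers to at most 19.4 and lymphocyte markers to at most 47.0. Macrophage markers summed to 54.8 to 97.6, 79.8 to 337 and 174 to 395 CPM, thin limb markers to 24.9 to 38.4, 115 to 127 and 225 to 251 with Sptssb at 0 throughout, parietal cell markers to 189 to 216, 276 to 414 and 498 to 643, and podocyte markers to 166 to 206, 114 to 269 and 68.8 to 96.7. Nerve and Schwann cell markers summed to 19.2 to 33.1 CPM at d14 and to 3.32 to 4.04 CPM in uninjured cells. Most of the d14 sum was Ncam1, also in the parietal cell list, at a mean of 21.1 CPM. Sox10, S100b and Th were at 0 in every library. Of the d14 libraries replicate 1 had the highest Megf6, and the highest nerve (33.1 against 19.2 and 20.4 CPM) and parietal cell sums (643 against 532 and 498). Its principal cell and thin limb sums were little above those of replicate 3 (749 against 746, and 251 against 240). Other sums peaked elsewhere, that of intercalated cells in replicate 3. These lists were picked after their values were seen, and their part in Megf6 was not tested.

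**Figure D2:**
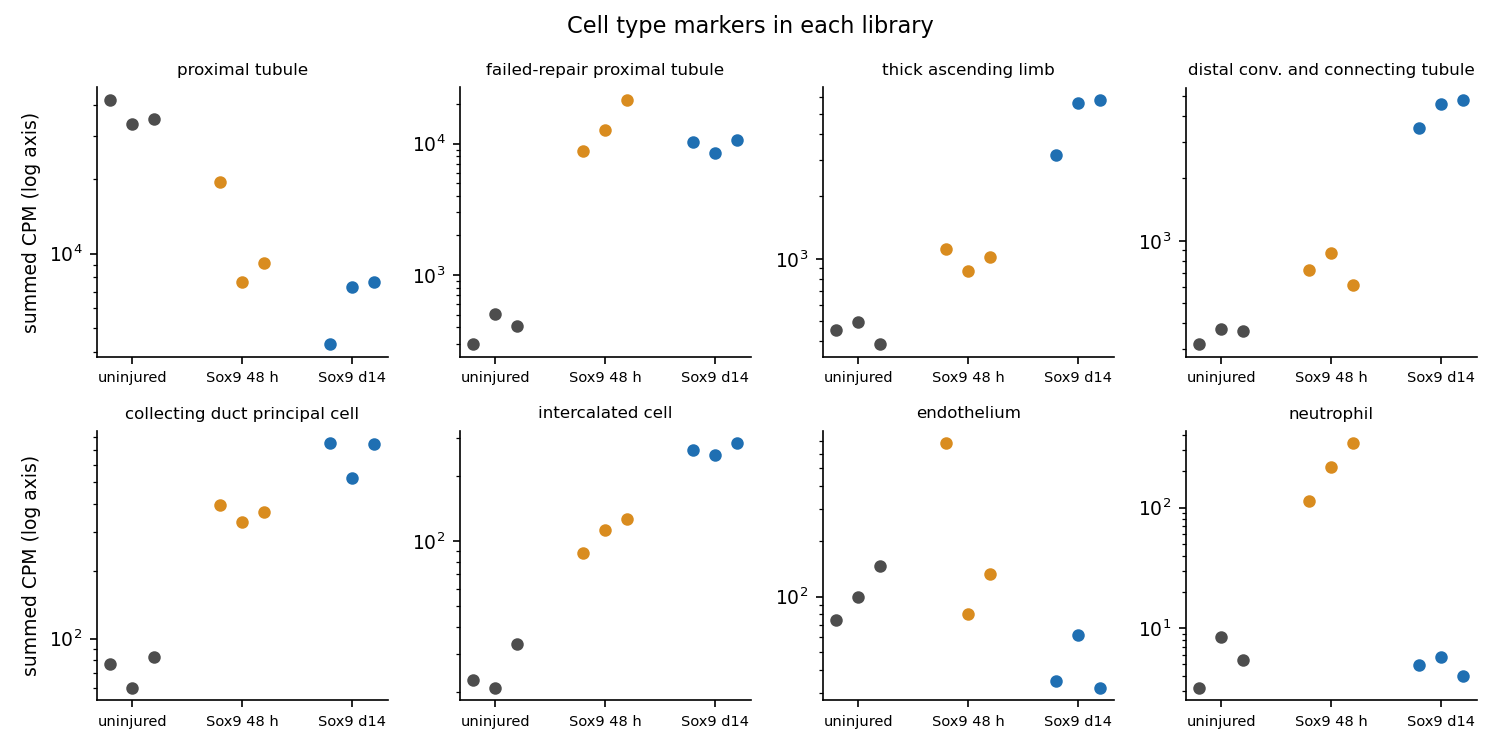
Summed CPM (log axes) of the markers of 8 cell types in each library, with replicates 1 to 3 from left to right in each group. Distal tubule and thick ascending limb sums are highest in the 3 d14 libraries, neutrophil sums are high only at 48 h, and endothelial markers stand out in 48 h replicate 1.

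The genes nearest in pattern were found by the root mean square difference of log2 CPM, centred on each gene, over the 9 libraries among 13579 named genes. With a prior count of 2 this measure flattens scarce genes, and low rises then look alike. For Abca13 they were C1s2, Atp4a, Sfrp1, Sftpd and Nog (differences of 0.26 to 0.55 in log2 units). Of these Sfrp1, which encodes a secreted inhibitor of Wnt signalling, went with Abca13 at a similar abundance, at 12.9, 11.6 and 7.92 CPM in uninjured cells, 18.5 ± 7.04 CPM at 48 h and 279 ± 73.4 CPM at d14. Atp4a, the catalytic subunit of the gastric proton pump, averaged 3.67 ± 0.235 CPM without injury, reached 11.7, 4.31 and 5.02 CPM in the 48 h replicates and 125 ± 45.8 CPM at d14. Both, like Abca13, were lowest of the d14 libraries in replicate 1 and highest of the 48 h libraries there. The nearest genes were chosen over these same 9 libraries, so a shared replicate order is not separate evidence. Nog, which encodes the BMP antagonist noggin, had no count in uninjured or 48 h cells and was at 0.458, 2.45 and 2.48 CPM at d14.

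For Arhgap36 the nearest were Zfp469, Kif1a, Cxcl17, Sox11 and Sult4a1 (0.98 to 1.11 log2 units). Their differences are larger than those of the Abca13 set, and in d14 replicates 2 and 3 each lay below Arhgap36 on the centred scale. Cxcl17, a mucosal chemokine, was at 12.5 ± 2.64 CPM at d14 and 0.00846 ± 0.0147 CPM in uninjured cells. Kif1a, a neuronal kinesin, was at 5.09 ± 2.87 CPM at d14 with no count in uninjured cells, and Sox11, a SOX factor of developing tissue, at 2.93 ± 0.718 CPM. For Megf6 they were Sorcs2, Serpina3g, Clca3a1, Egfl6 and C1s2 (0.63 to 0.89 log2 units). Egfl6, itself an EGF-repeat protein, was at 0.458 ± 0.220, 1.70 ± 0.803 and 22.1 ± 3.10 CPM in the 3 groups. Sorcs2, a sorting receptor of neurons, was highest of the d14 libraries in replicate 1 at 5.67 CPM, as Megf6 was, and its choice used these same libraries. Among all 13579 genes Abca13 ranked 8 in likeness to Megf6 and 9 in likeness to Arhgap36, while Megf6 ranked 51 in likeness to Arhgap36. In the other direction Megf6 ranked 67 in likeness to Abca13, and Arhgap36 ranked 264 in likeness to Abca13 and 196 to Megf6. These ranks describe a choice already made on the same pattern.

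**Figure D3:**
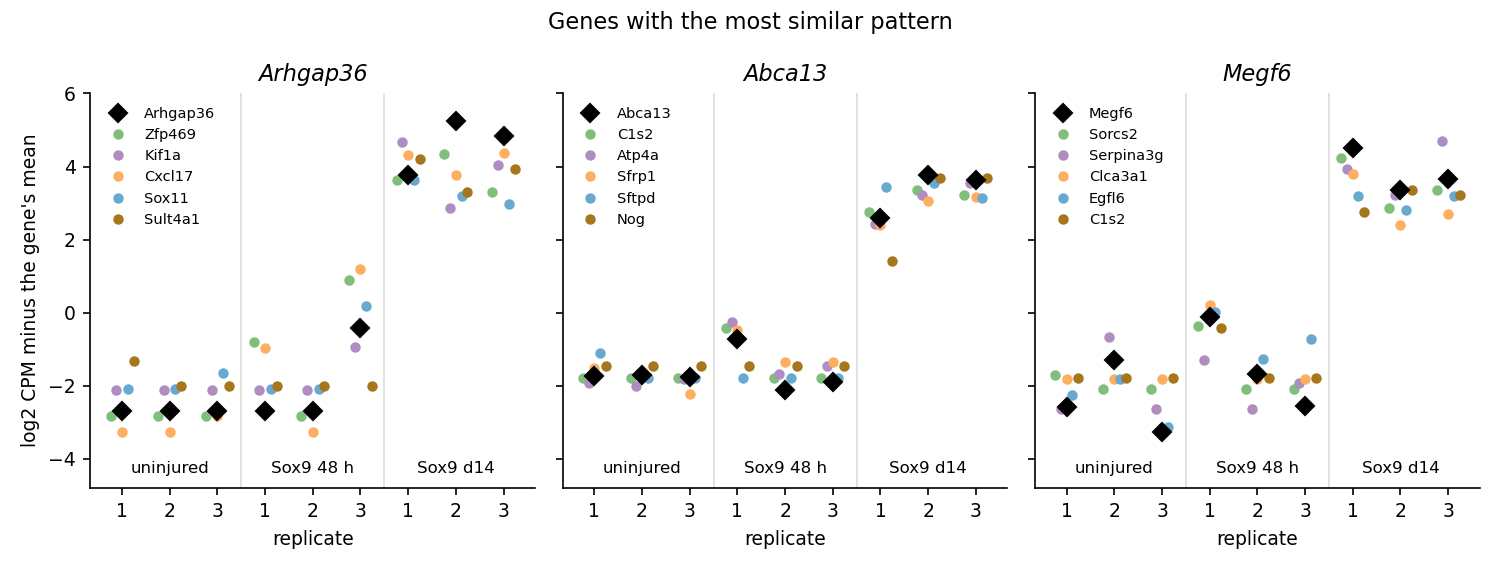
Log2 CPM minus each gene's mean over the 9 libraries, for each of the 3 genes (black diamonds) and the 5 genes with the most similar pattern (coloured circles), by group and replicate. The Abca13 set lies closest together, and in the Arhgap36 panel the diamonds of d14 replicates 2 and 3 stand above the circles.

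The remaining members of the pathways and families were measured in the same fit, leaving out the 3 genes themselves. Fold changes are on the log2 scale with SE. Genes named here follow a fixed rule unless said to be chosen after their values were seen. Of 34 hedgehog genes 21 were tested, and 8 were higher and 4 lower in d14 than in uninjured cells (10 and 1 without TMM), where 25.1% of all genes were higher and 20.7% lower. Their median fold was 0.32 against 0.06 for all genes. Scube3, which encodes a secreted protein that helps release hedgehog ligands, rose by 5.85 ± 0.40 (adjusted p = 2.42e-06), from 0.955, 1.47 and 2.01 CPM to 70.9, 67.7 and 116 CPM. Gpr161, a receptor of the primary cilium that raises cAMP and restrains hedgehog signalling, rose by 6.57 ± 0.69 from 0.0640 ± 0.0635 to 6.89 ± 0.331 CPM. The co-receptor gene Cdon rose by 2.14 ± 0.21. Lrp2, which encodes megalin and is also in the proximal tubule marker list, fell by 2.27 on the log2 scale. The count of 8 became 5 without uninjured replicate 2.

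Against 48 h cells 7 of the 21 hedgehog genes were higher in d14 and 3 lower (14 and 0 without TMM), beside 16.8% and 16.3% of all genes, with a median of 0.61 against 0.05. Scube3 rose by 3.32 ± 0.36, the co-receptor gene Gas1 by 1.29 ± 0.21, the receptor gene Ptch1 by 0.90 ± 0.16 and the ciliary gene Evc2 by 0.71 ± 0.12. Ptch1 and Evc2 had been lower at 48 h than in uninjured cells (-0.59 ± 0.16 and -0.47 ± 0.12), and neither was called in d14 against uninjured cells (0.32 ± 0.15 and 0.25 ± 0.12). The 3 lower became 0 to 2 when any 1 library was left out, and 1 or 0 unless that was uninjured replicate 1 or 2. At 48 h against uninjured cells 4 were higher and 7 lower, beside 17.4% and 11.7% of all genes. Gpr161 (4.67 ± 0.67) and Scube3 (2.53 ± 0.38) were thus higher at 48 h already, while Evc (-1.45 ± 0.25) and Lrp2 (-1.46 ± 0.24) were lower. Chosen after their values were seen, the GLI factors at the end of the pathway were below the filter, with 0 counts of Gli1 in all libraries, 2, 2 and 1 counts of Gli2 and 3, 5 and 81 counts of Gli3 pooled over uninjured, 48 h and d14 cells. The ligand gene Shh, chosen likewise, was at 0.518 ± 0.148, 0.278 ± 0.198 and 1.39 ± 0.844 CPM and was not called in any comparison.

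Of 18 tested genes of protein kinase A, its regulators and its anchoring proteins 8 were higher and 2 lower in d14 than in uninjured cells (11 and 0 without TMM), beside 25.1% and 20.7% of all genes, with a median of 0.15. Prkx, a catalytic subunit of the same family, rose by 1.25 ± 0.18 from 10.6 ± 0.639 to 25.2 ± 4.85 CPM. Of the regulatory subunits Prkar1b rose by 5.33 ± 0.84 from 0.127 ± 0.116 to 5.54 ± 1.37 CPM and Prkar2b by 3.34 ± 0.90 from 0.248 ± 0.0403 to 2.55 ± 1.19 CPM. The anchoring protein gene Akap12, which is also in the failed-repair and parietal cell marker lists, rose by 3.78 ± 0.57, but was already higher at 48 h and was not called in d14 against 48 h cells (0.60 ± 0.50). Prkar1b was not called there either (1.27 ± 0.69). The main catalytic subunits, chosen after their values were seen, were not called: Prkaca was at 53.9 ± 4.71 and 55.0 ± 3.49 CPM and Prkacb at 54.8 ± 0.792 and 57.8 ± 4.56 CPM. The count of 8 became 5 without uninjured replicate 2, d14 replicate 1 or d14 replicate 3. The 2 lower became 1 or 0 without uninjured replicate 1 or 3, 48 h replicate 3 or any 1 d14 library, and 4 without 48 h replicate 2.

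Against 48 h cells 4 of the 18 protein kinase A genes were higher in d14 and none lower (12 and 0 without TMM), with a median of 0.27. The share higher was near that of all genes, 16.8%, and 16.3% of all genes were lower. The 4 higher genes were Prkx (0.64 ± 0.19), Prkar2b (2.62 ± 0.89), Akap9 (0.64 ± 0.13) and the ubiquitin ligase gene Pja2 (0.40 ± 0.10). Without d14 replicate 1 there were 2 and without 48 h replicate 3 there were 7. At 48 h against uninjured cells 3 were higher and 2 lower (17.4% and 11.7% of all genes), with Prkar1b at 4.05 ± 0.82, Akap12 at 3.18 ± 0.56, Prkx at 0.61 ± 0.19 and Akap11 at -0.50 ± 0.14. The other lower gene, Akap5 (-3.42 ± 1.14), was chosen after its value was seen. The 2 lower became 1 or 0 when any library except uninjured replicate 2 and 48 h replicates 1 and 3 was left out.

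Of the ABCA family 8 genes besides Abca13 were tested, and 5 were higher and 1 lower in d14 than in uninjured cells, beside 25.1% and 20.7% of all genes, with a median of 1.29. Abca1, the cholesterol exporter, was at 47.4, 39.8 and 49.5 CPM in uninjured cells, 41.8, 35.2 and 62.0 at 48 h and 135, 130 and 143 at d14. It rose by 1.58 ± 0.18 over uninjured cells (adjusted p = 3.75e-05) and by 1.55 ± 0.19 over 48 h cells, and was not called at 48 h (0.03 ± 0.18). Abca2 followed with 0.74 ± 0.13 and 0.75 ± 0.13, and was not called at 48 h (-0.01 ± 0.13). Abca4 was likewise higher than at 48 h (1.81 ± 0.39). Abca3, which loads lipid into the lamellar bodies of lung cells, went the other way, from 866 ± 68.3 through 572 ± 49.5 to 323 ± 24.9 CPM, and was lower in d14 than in both other groups. Abca7 was higher in d14 than in uninjured cells by 1.28 ± 0.16, and already at 48 h by 1.13 ± 0.17. Against 48 h cells 3 were higher and 1 lower (5 and 0 without TMM), beside 16.8% and 16.3% of all genes, with a median of 0.26, and 2 were lower without 48 h replicate 1. At 48 h 2 were higher and 1 lower than in uninjured cells (17.4% and 11.7% of all genes), and the 2 became 1 without uninjured replicate 1 or 2. Of the 7 family members below the filter none had more than 23 counts over a group.

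Proteins with repeated EGF-like domains include many of the extracellular matrix. Of 26 tested, 15 were higher and 1 lower in d14 than in uninjured cells (25.1% and 20.7% of all genes), with a median of 1.48. Against 48 h cells 13 were higher and 2 lower (16.8% and 16.3% of all genes), with a median of 1.08. Ltbp3, which holds latent TGF-beta in the matrix, rose by 4.98 ± 0.21 over uninjured and by 2.79 ± 0.19 over 48 h cells, with 3.63 ± 0.587, 16.5 ± 3.79 and 115 ± 17.0 CPM. Efemp1 rose by 5.58 ± 0.34 and 1.60 ± 0.28. Egfl6 rose by 5.61 ± 0.42 and 3.63 ± 0.38, and the basement membrane gene Agrn by 1.65 ± 0.13 and 1.11 ± 0.13. At 48 h against uninjured cells 8 were higher and 1 lower (17.4% and 11.7% of all genes), and the higher ones included Ltbp3 (2.19 ± 0.19), Efemp1 (3.98 ± 0.32) and Efemp2 (3.72 ± 0.32). Lower counts in this list rested on single libraries: 1 became 2 without 48 h replicate 1 in the comparisons with uninjured cells, and the 2 lower than at 48 h became 1 without 48 h replicate 1 or any 1 d14 library.

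Megf9 and Megf11, relatives of Megf6 by name, were chosen after their values were seen. Megf9 was at 4.59 ± 1.90, 12.2 ± 2.47 and 31.3 ± 1.90 CPM in uninjured, 48 h and d14 cells, and was called higher in each comparison. Megf11 was below 1 CPM on average in each group and not called, and Megf10, chosen likewise, had no count in any library. Ltbp2, also chosen after its values were seen, was at 0.225 ± 0.141, 0.399 ± 0.0969 and 9.82 ± 1.34 CPM, levels close to those of Megf6, and was called in both d14 comparisons but not at 48 h.

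**Figure D4:**
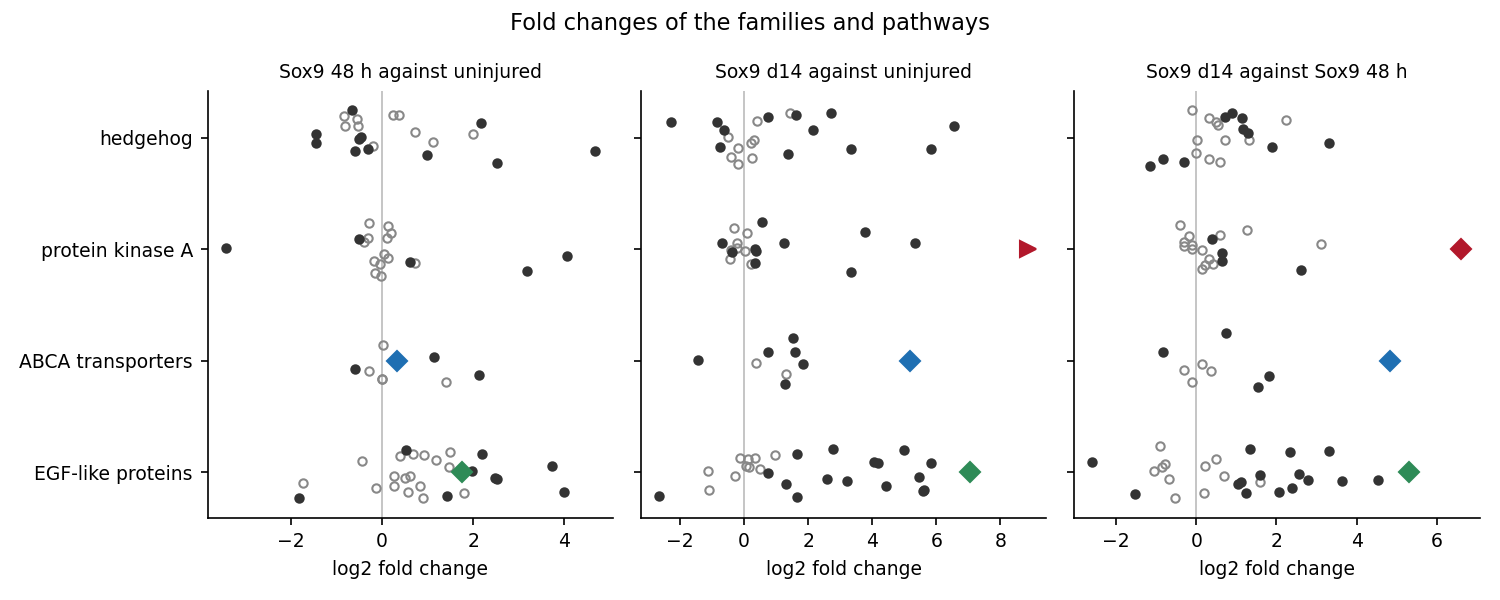
Log2 fold changes of the tested members of 4 pathways and families in the 3 comparisons, with filled points for genes called by edgeR and open points for the rest; vertical position within a row is arbitrary. Coloured symbols are Arhgap36 (red, drawn on the protein kinase A row, the triangle at 8.86 being a lower bound), Abca13 (blue) and Megf6 (green), which lie to the right of the other points of their rows in both d14 comparisons.

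Position in the genome was not used to choose the genes. Within 500 kb of the starts, 1, 4 and 9 protein-coding neighbours of Arhgap36, Abca13 and Megf6 were tested. In d14 against uninjured cells none, 1 and 1 of them were higher and none, 2 and 4 lower (25.1% and 20.7% of all genes). Against 48 h cells none, none and 2 were higher and none, 1 and 2 lower (16.8% and 16.3% of all genes). Of the nearest tested neighbours, Enox2, 176 kb before Arhgap36, was at 13.9 ± 2.77, 12.4 ± 2.53 and 13.6 ± 0.814 CPM in the 3 groups and was not called. On the other side of Arhgap36, Stk26, a kinase gene 1377 kb away, rose by 4.82 ± 0.82 in d14 against uninjured cells. Tprgl, 10.1 kb before Megf6, was at 53.9 ± 3.39, 42.5 ± 5.73 and 56.3 ± 3.19 CPM and was called higher in d14 than at 48 h (0.40 ± 0.12). Arhgef16, 131 kb after the Megf6 start, fell by 0.27 on the log2 scale in d14 against uninjured cells. Upp1, 73.8 kb before Abca13 and encoding uridine phosphorylase, rose by 3.63 ± 0.45 in d14, and by 3.04 ± 0.44 at 48 h. Zpbp, 2270 kb after the Abca13 start, was not called in any comparison. Prdm16, 466 kb after the Megf6 start and chosen after its values were seen, had mean levels of 2.13, 12.0 and 61.4 CPM and was called higher in each comparison.

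**Figure D5:**
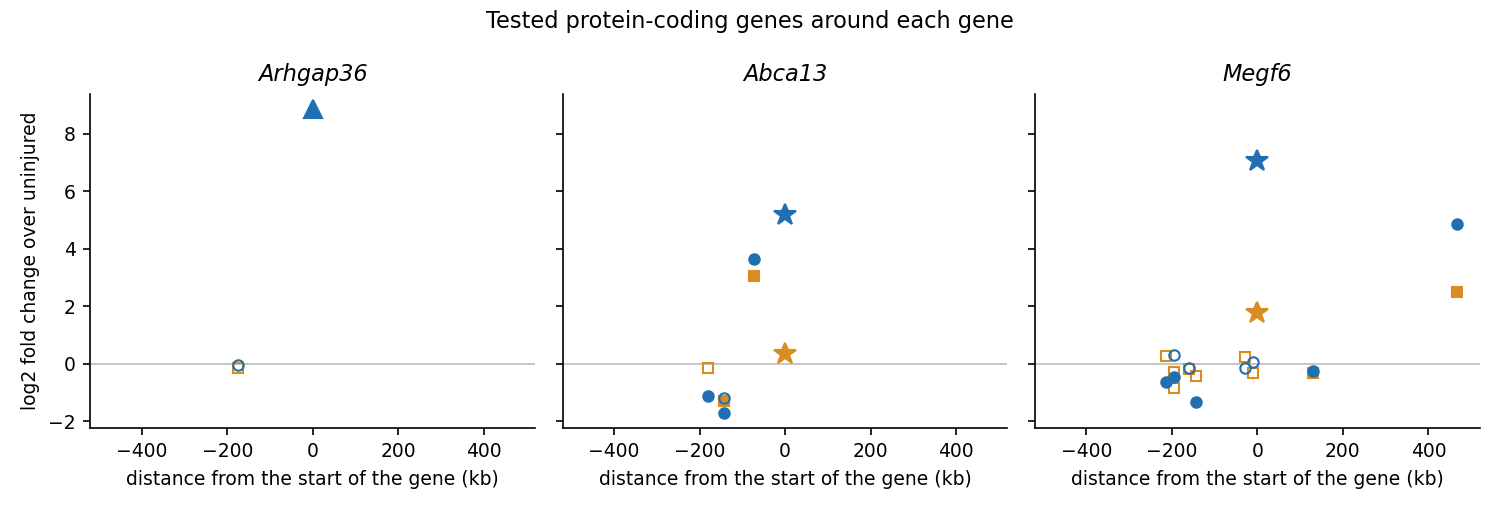
Log2 fold change over uninjured cells of the tested protein-coding genes within 500 kb of each gene, by distance of their starts (kb); blue circles are d14, orange squares 48 h, filled where edgeR called the gene. Stars mark Abca13 and Megf6 and the triangle the lower bound for Arhgap36, and most neighbours lie near or below 0.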

How the data were processed

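The authors deposited 1 table of expected counts per gene and library, already whole numbers and not scaled to depth, with 92 spike-in rows at 0 counts that were not used. The submitters' processing notes name STAR 2.6.1, RSEM 1.2.28, DESeq2 1.26.0 and the builds mm10 and GRCh38, with no role stated. All identifiers are mouse, and GENCODE M21 (mm10), which holds 54487 of the 55385 in the same version, gave positions and exonic lengths. Whether counting used strand: not given in the sources used here.

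Counts were fitted with edgeR 4.0.16 in R 4.3.3: filterByExpr (minimum count 10, minimum total 15), TMM, robust quasi-likelihood F-tests with 1 coefficient for each group and all 9 libraries in the fit, and Benjamini-Hochberg adjustment over the 15519 genes kept, called at adjusted p under 0.05. Standard errors were obtained by dividing the absolute log2 fold change by the root of the F statistic. The procedure was tested on simulated data. Against a group with no count, folds are bounds that put 3 counts in that group. Ratios of pooled CPM carry exact 95% intervals.

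The members and lists were chosen with earlier results of these data known. Some planned results are not reported here. Named genes are the 3 members, Sox9 and Slc34a1, up to 4 called members per list and comparison with the smallest p (the 2 most abundant where none was called), the 5 nearest patterns per member, the nearest tested neighbour on either side, and of each marker list the most abundant marker and any at 0. Alternatives were RLE or no scaling, DESeq2 1.42.0, no filter, 2 groups only, no mitochondrial genes, a replicate block, and leaving out each library.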

Additional observations from a re-analysis of the deposited data

How the results depend on the processing

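The fold changes of Arhgap36, Abca13 and Megf6 in the d14 comparisons kept their direction under every alternative that gave a value. Leaving out 1 library at a time, that of Arhgap36 ranged from at least 8.12 to at least 9.16 over uninjured and from 5.95 to 6.94 over 48 h cells, that of Abca13 from 4.96 to 5.45 and 4.62 to 5.41, and that of Megf6 from 6.44 to 8.74 and 4.66 to 7.22 (log2). The counts behind Megf6 in the low groups, 8 and 12, limit its precision. No fold of Arhgap36 at 48 h over uninjured cells is given, because its 48 h counts came from 1 library. Megf6 was not tested in that comparison when only those groups were fitted. No bound was computed for Arhgap36 over uninjured cells with DESeq2, no filter, 2 groups or the block.

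Without scaling beyond library size the median gene shifted by 0.57 in both d14 comparisons. Calls then became 7315 higher and 1417 lower in d14 against uninjured cells (3898 and 3214 with TMM), and 6812 and 934 against 48 h (2604 and 2533 with TMM), while the fold of Abca13 went to 5.69 and 5.39 and that of Megf6 to 7.65 and 5.93. The 1818 genes lower at 48 h than in uninjured cells became 1147 to 1995 when 1 library was left out, with the 1147 without uninjured replicate 1 and 1208 without uninjured replicate 3.

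With the replicate block, 3608 genes were higher in d14 than in uninjured cells, and Abca13 was at 5.18. Same-numbered libraries of different groups did not deviate together (correlations of -0.127 to 0.019 across genes), so the numbers were not taken to pair libraries. The block left 1 in place of 3 hedgehog genes lower than at 48 h, and 1 in place of 2 in the lower counts of protein kinase A genes (both comparisons with uninjured cells) and EGF-like genes (against 48 h).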
